A study of Mus musculus with 17 samples.

Results

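Healthy DN2 cells of the mouse thymus, an early stage of T-cell development, were compared with healthy granulocyte-macrophage progenitors (GMP) of the bone marrow, the shared precursor of neutrophils and monocytes. The members are the 4 arrays whose labels name healthy thymic DN2 cells (2 arrays) or healthy marrow GMP cells (2 arrays), out of 17 arrays in the series. All 4 came from C57/Bl6 mice labelled wildtype, with no transgene or treatment given. The labels give neither age nor the gates of the healthy sorts, and they do not say whether the 2 arrays of a group came from separate mice, so each p-value measures only the spread between these arrays. The other 13 arrays hold leukemic splenocytes from irradiated recipients of progenitors transformed with Myc and Bcl2. Of these, 5 carry the label DN2, 5 GMP and 3 LSK (marrow enriched for stem cells) after the transformed cell, from C57/Bl6 CD45.2 wildtype donors. The DN2-labelled and GMP-labelled ones serve below as a comparison on separate arrays.

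DN2 stands for the second CD4 and CD8 double-negative stage, at which thymocytes carry CD25 (Il2ra) and CD44 and commit to the T lineage under Notch signals from the thymic epithelium. Bcl11b, Gata3 and other factors then install T-cell receptor signalling and the rearrangement of receptor genes. GMP arise in the marrow under C/EBP factors and PU.1 and make the serine proteases and myeloperoxidase that fill the primary granules of neutrophils.

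Values are log2 RMA summaries per probe set, and a gene is represented by its brightest probe set over the 4 arrays. Array medians ran from 3.81 to 3.86, and a value near 3.83, the median of all 4 arrays, is close to background, where differences appear smaller than they are. Genes with a limma adjusted p under 0.05 (Benjamini-Hochberg over 17097 genes) are termed called, and differences are given as DN2 minus GMP on the log2 scale with their standard error (SE). The number of arrays limits the precision, and an exact permutation test of 2 against 2 arrays cannot give a two-sided p under 0.333. The DN2 arrays correlated at 0.998 over all genes, the GMP arrays at 0.995, and arrays of different groups at 0.943 to 0.951.

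The cells differed in 5170 of the 17097 genes, or 30.2%. Of these, 2476 (14.5% of all genes) were higher in DN2 and 2694 (15.8%) were lower. The balance turned to 2657 higher and 2479 lower under quantile normalization and widened to 2315 and 3137 with each array centred on its median. At least 2-fold differences were called for 1945 genes (11.4%), of which 1010 (5.91%) were higher and 935 (5.47%) lower. Differences of at least 16-fold were called for 66 genes higher in DN2 and 96 genes lower. In 11123 genes (65.1%) the 2 DN2 arrays did not overlap the 2 GMP arrays. Among the 8410 genes with a mean above 5, 24% were called higher and 25.7% lower, 49.7% in all. The list counts below are to be set against these shares, and nothing is read from a count near them. The count was 1950 without DN2 array 1, 2130 without DN2 array 2, 5176 without GMP array 1 and 3861 without GMP array 2, and it was 1333 (7.8%) with the leukemia arrays in the fit. Of the 1333, 1321 were also called on the 4 arrays alone.

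**Figure D1:**
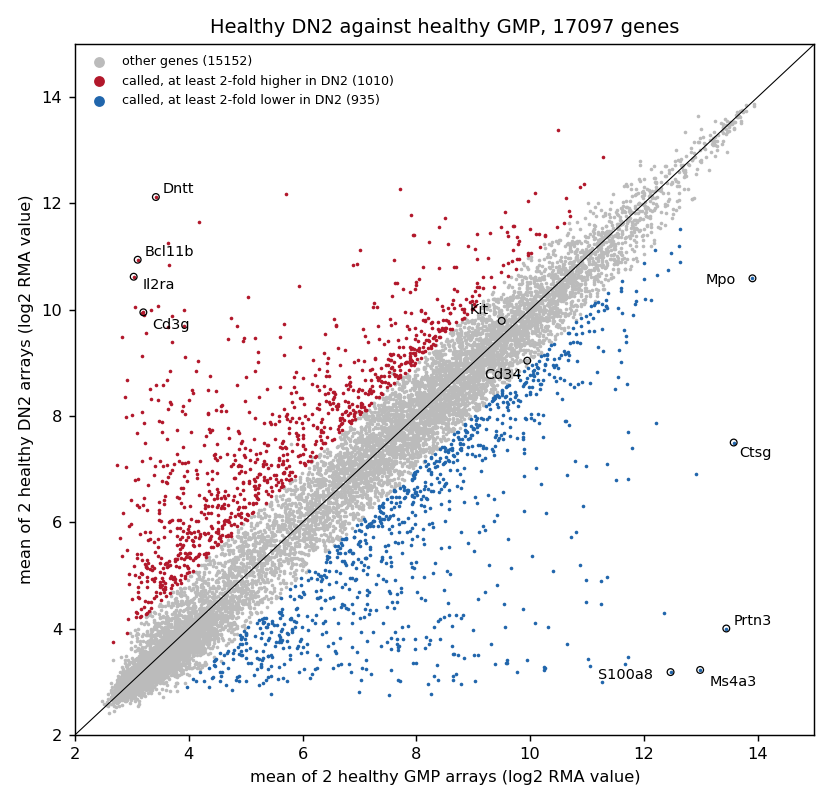
Mean log2 value of the 2 healthy DN2 arrays (vertical axis) against that of the 2 healthy GMP arrays (horizontal axis) for 17097 genes, with the line of equal values. Red marks the 1010 genes called and at least 2-fold higher in DN2 and blue the 935 at least 2-fold lower. Dntt and Bcl11b lie at the upper left, Ms4a3 and Prtn3 at the lower right, and Kit lies near the line.

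The sort labels were checked first against surface markers. Il2ra, the CD25 chain that defines DN2, read 10.57 and 10.68 on the DN2 arrays and 2.94 and 3.11 on the GMP arrays, so the groups stood far apart (7.60 ± 0.12, adjusted p = 6.27e-07). Thy1, a surface glycoprotein of T-lineage cells, read 10.05 and 9.95 on the DN2 arrays and 3.90 and 3.94 on the GMP arrays (6.08 ± 0.11). Kit, the stem cell factor receptor that both progenitors carry, read 9.90 and 9.69 on the DN2 arrays and 9.54 and 9.46 on the GMP arrays, a difference of 0.30 ± 0.12 that was not called (adjusted p = 0.117). Fcgr3, a low-affinity IgG receptor used to gate GMP, read 5.11 and 4.66 on the DN2 arrays and 11.17 and 11.33 on the GMP arrays (-6.36 ± 0.17), and its inhibitory relative Fcgr2b differed by -3.93 ± 0.12. Both Fc receptor genes were high on both GMP arrays. Cd34, a progenitor sialomucin, was high in both groups and lower in DN2 (9.08 and 9.01 against 10.06 and 9.84, -0.91 ± 0.12). Its call was lost without DN2 array 1 (-0.95, adjusted p = 0.0533) or DN2 array 2 (-0.87, adjusted p = 0.0587). Cd44, an adhesion receptor present at DN2, was also high in both and lower in DN2 (10.12 and 10.07 against 11.16 and 11.10, -1.04 ± 0.10). Ptprc, the pan-leukocyte CD45, was higher in DN2 by 1.43 ± 0.15.

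Of 9 measured later thymocyte genes 4 were higher in DN2 and 1 was lower. The higher count was 2 without DN2 array 1, DN2 array 2 or GMP array 2. Arpp21 and Ccr9, described below, led it, while the defining co-receptor genes stayed near background. Cd4 read 3.66 and 3.64 on the DN2 arrays and 3.65 and 3.87 on the GMP arrays and Cd8b1 3.33 and 3.85 on the DN2 arrays and 3.25 and 3.08 on the GMP arrays, and neither gene was called. Cd8a read 3.86 and 3.86 against 3.48 and 3.49 for DN2 against GMP, and its small difference of 0.37 ± 0.10 lost its call without any 1 of the 4 arrays (0.37 to 0.38, adjusted p from 0.0601 to 0.199). Itgam, the CD11b chain of mature myeloid cells, was low in both groups, at 3.71 and 3.97 on the DN2 arrays and 5.21 and 4.67 on the GMP arrays. Its difference of -1.10 ± 0.20 was called on the 4 arrays but not without DN2 array 1 (-0.97, adjusted p = 0.136) or DN2 array 2 (-1.22, adjusted p = 0.0836). Ly6a, Il7r, Tcf7 and Ly6g were not analysed here.

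Promoter sequences are shown for 4 primary granule genes, which were lower in DN2 together, and for 4 genes that were higher in DN2: neighbouring CD3 chain genes, and Dntt and Bcl11b, which had the largest rises. They are RefSeq windows of 300 bases on GRCm38.p6, from 250 bases before to 50 bases after the gene start, printed 5′ to 3′ on the gene's strand. Capitals mark matches on either strand to 6 motifs, which are GAGGAA for Ets factors of the PU.1 type, TTGCNNAA for C/EBP, TGTGGT for Runx, CAGCTG for E proteins, CTTTGA for the TCF and LEF factors and AGATAA for GATA factors. Any overlap between motifs was kept. The windows are Elane chr10:79886062-79886361 on the plus strand, Prtn3 chr10:79879417-79879716 on the plus strand, Ctsg chr14:56102525-56102824 on the minus strand, Mpo chr11:87793534-87793833 on the plus strand, Cd3g chr9:44980382-44980681 on the minus strand, Cd3d chr9:44981536-44981835 on the plus strand, Dntt chr19:41029025-41029324 on the plus strand and Bcl11b chr12:108003365-108003664 on the minus strand.
Elane: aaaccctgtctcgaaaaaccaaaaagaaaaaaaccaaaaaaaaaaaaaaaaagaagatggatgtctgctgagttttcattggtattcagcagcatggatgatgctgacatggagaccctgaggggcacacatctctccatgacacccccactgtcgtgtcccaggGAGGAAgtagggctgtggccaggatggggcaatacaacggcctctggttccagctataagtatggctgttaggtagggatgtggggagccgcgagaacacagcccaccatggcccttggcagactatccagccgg
Prtn3: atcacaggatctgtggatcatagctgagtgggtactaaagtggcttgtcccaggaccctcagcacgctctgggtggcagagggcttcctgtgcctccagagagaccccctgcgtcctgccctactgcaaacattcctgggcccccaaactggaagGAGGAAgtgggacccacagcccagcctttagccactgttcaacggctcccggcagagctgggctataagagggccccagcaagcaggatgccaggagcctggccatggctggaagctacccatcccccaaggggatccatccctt
Ctsg: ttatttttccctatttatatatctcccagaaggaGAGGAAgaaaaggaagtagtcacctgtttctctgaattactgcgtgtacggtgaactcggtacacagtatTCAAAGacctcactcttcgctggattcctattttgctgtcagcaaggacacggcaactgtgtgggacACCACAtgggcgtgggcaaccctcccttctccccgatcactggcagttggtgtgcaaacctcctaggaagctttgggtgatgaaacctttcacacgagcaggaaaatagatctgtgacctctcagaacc
Mpo: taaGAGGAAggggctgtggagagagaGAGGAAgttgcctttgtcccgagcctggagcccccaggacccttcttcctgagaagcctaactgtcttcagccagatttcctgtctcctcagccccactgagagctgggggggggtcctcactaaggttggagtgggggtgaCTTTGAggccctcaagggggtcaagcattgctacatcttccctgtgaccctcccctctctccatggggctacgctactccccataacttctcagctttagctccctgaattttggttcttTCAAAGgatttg
Cd3g: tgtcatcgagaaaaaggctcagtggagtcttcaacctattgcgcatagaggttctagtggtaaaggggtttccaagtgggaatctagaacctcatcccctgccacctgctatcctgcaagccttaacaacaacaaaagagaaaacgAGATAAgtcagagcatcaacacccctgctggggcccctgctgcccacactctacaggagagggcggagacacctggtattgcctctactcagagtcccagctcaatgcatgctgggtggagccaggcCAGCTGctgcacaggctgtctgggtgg
Cd3d: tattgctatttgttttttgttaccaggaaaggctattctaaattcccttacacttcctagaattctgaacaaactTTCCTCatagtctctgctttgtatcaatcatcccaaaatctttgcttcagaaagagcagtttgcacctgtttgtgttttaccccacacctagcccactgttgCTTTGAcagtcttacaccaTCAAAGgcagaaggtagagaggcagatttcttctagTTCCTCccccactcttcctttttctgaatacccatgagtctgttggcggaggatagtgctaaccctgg
Dntt: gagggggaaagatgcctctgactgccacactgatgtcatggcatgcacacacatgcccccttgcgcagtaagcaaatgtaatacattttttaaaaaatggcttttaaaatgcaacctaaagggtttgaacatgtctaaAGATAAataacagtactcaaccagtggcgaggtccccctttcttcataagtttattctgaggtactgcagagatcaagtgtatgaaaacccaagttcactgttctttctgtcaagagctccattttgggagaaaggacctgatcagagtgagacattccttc
Bcl11b: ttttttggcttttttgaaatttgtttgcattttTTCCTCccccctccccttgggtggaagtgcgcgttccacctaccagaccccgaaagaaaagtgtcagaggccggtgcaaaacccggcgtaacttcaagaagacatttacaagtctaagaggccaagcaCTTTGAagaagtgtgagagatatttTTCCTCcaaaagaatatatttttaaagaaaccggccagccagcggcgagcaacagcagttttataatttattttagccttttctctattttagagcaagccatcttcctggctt

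All 4 granule gene windows held GAGGAA in the gene's own orientation, starting at -85 in Elane, -95 in Prtn3, -216 in Ctsg and at both -247 and -224 in Mpo, counted from the gene start as 0. In Cd3d and Bcl11b the same motif lay on the opposite strand, as TTCCTC, at -175 and -18 in Cd3d and at -217 and -64 in Bcl11b. Cd3g held an E-box at 23 and a GATA match at -104, and Dntt a GATA match at -112. No printed window held a C/EBP match. The windows of the CD3 chain genes Cd247 and Cd3e were searched but not printed. Cd247, also higher in DN2, held a C/EBP match at -196 and a TCF and LEF match at 1. Cd3e held TTCCTC at -100. TCF and LEF matches lay in genes of both kinds, at -73 and -54 in Cd3d, -89 in Bcl11b, -146 in Ctsg and -82 and 38 in Mpo, and the single Runx match was in Ctsg at -79. These short letters are common: GAGGAA was present on 1 or the other strand in 28.3% of all 32851 promoter windows, TTGCNNAA in 10.8%, TGTGGT in 16.8%, CAGCTG in 16.3%, CTTTGA in 16% and AGATAA in 11.2%. In the 17065 windows of the genes tested the shares were 27.1%, 9.35%, 13.8%, 16.5%, 13.6% and 7.99%, in the same order. GAGGAA was found in 28.7% of the 981 windows of genes at least 2-fold lower in DN2 and in 26.2% of the 1068 windows of genes at least 2-fold higher. The E-box was found in 14.7% and 19.5% of the same windows, AGATAA in 6.63% and 9.08%, TTGCNNAA in 10.9% and 8.15%, TGTGGT in 14.7% and 15.8%, and CTTTGA in 12.2% and 12.3%. A match describes letters in a window and does not mark a bound site.

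The 12 largest rises in DN2 were led by Dntt, Bcl11b and Trgv1. Dntt, the terminal transferase that adds nucleotides at receptor gene junctions, read 12.29 and 11.95 on the DN2 arrays and 3.66 and 3.19 on the GMP arrays (8.70 ± 0.19, adjusted p = 1.33e-06, 415-fold). Bcl11b, the zinc finger factor of T commitment, read 10.94 and 10.94 on the DN2 arrays and 3.06 and 3.15 on the GMP arrays (7.84 ± 0.11). Trgv1, a variable segment of the T-cell receptor gamma locus, read 11.25 and 11.26 on the DN2 arrays and 3.68 and 3.60 on the GMP arrays (7.61 ± 0.11). In each of these genes both GMP arrays lay near background, so the folds are compressed. The other rises were Il2ra, Myl10 (a myosin regulatory light chain, 7.46 ± 0.36), Ly6d (a lymphoid surface protein, 7.20 ± 0.16), Gm19696 (7.01 ± 0.16), 1810073O08Rik (6.76 ± 0.12), Cd3g, Trat1, Arpp21 (a cAMP-regulated phosphoprotein that later thymocytes also carry, 6.68 ± 0.12) and Plekha7 (6.67 ± 0.12). The Plekha7 value rests on 1 of its 2 probe sets, and the other gave -0.01.

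The 12 largest falls were led by Ms4a3, Prtn3 and S100a8. Ms4a3, a membrane protein of granulocyte and monocyte precursors, read 2.96 and 3.47 on the DN2 arrays and 12.88 and 13.10 on the GMP arrays (-9.78 ± 0.19, adjusted p = 9.12e-07, 877-fold). Prtn3, the granule protease proteinase 3, read 4.11 and 3.88 on the DN2 arrays and 13.46 and 13.44 on the GMP arrays (-9.45 ± 0.12). S100a8, a subunit of the calcium-binding protein calprotectin, read 3.20 and 3.16 on the DN2 arrays and 12.49 and 12.44 on the GMP arrays (-9.29 ± 0.10). Its partner S100a9 differed by -7.58 ± 0.21, so both subunits were near background in DN2 and high in GMP. The rest were Hp (haptoglobin, -8.33 ± 0.10), Trem3 (an activating myeloid receptor, -8.27 ± 0.16), Prg2 (eosinophil major basic protein, -8.27 ± 0.14), Elane (neutrophil elastase, -8.05 ± 0.20), Igsf6 (-7.75 ± 0.11), Wfdc21 (-7.03 ± 0.15), Dmkn (-7.01 ± 0.18) and Ear3 (an eosinophil-associated ribonuclease, -6.97 ± 0.10).

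**Figure D2:**
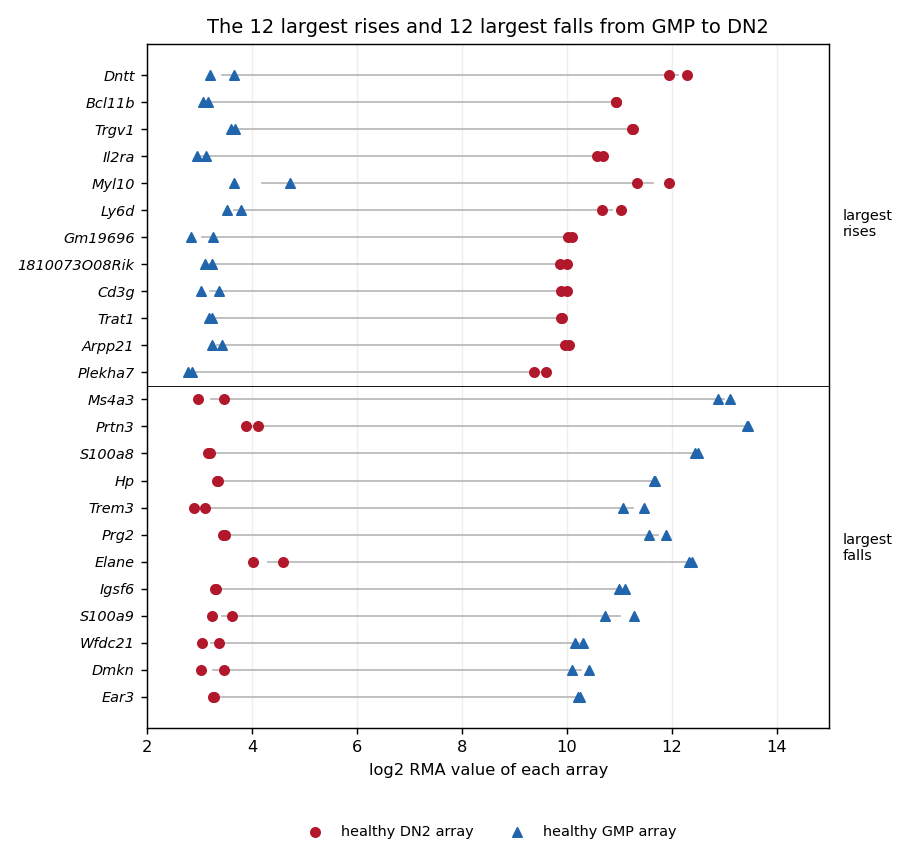
Log2 value of each healthy array for the 12 genes most raised and the 12 most reduced in DN2 against GMP (circles DN2, triangles GMP, grey line between the group means). Every gene had its lower group between 2.78 and 4.72. Arrays of a group lay close together except for Myl10, at 3.65 and 4.72 in GMP.

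On the T-cell side, genes of the receptor complex and its signalling proteins were called in 1 direction. Of 22 listed genes 20 were measured, 15 were higher in DN2 and 0 lower, with a median difference of 2.59 against -0.07 over all genes. Cd3g, the gamma chain of CD3, read 10.00 and 9.89 on the DN2 arrays and 3.36 and 3.03 on the GMP arrays (6.75 ± 0.14). Cd247, the zeta chain that carries most of the signalling motifs, read 8.36 and 8.09 on the DN2 arrays and 3.44 and 3.95 on the GMP arrays (4.54 ± 0.19). Cd3d, the delta chain, read 5.13 and 5.41 on the DN2 arrays and 3.85 and 3.44 on the GMP arrays (1.63 ± 0.17). Cd3e, the epsilon chain, read 5.56 and 5.48 on the DN2 arrays and 5.16 and 5.33 on the GMP arrays and was not called (0.27 ± 0.12, adjusted p = 0.135). The gamma, zeta and delta chains were thus called and the epsilon chain was not, each by its own probe set, whose levels cannot be set against each other.

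Downstream of the receptor, Lat, the membrane adaptor of the proximal signal, read 10.27 and 10.20 on the DN2 arrays and 5.46 and 4.61 on the GMP arrays (5.20 ± 0.26). Trat1, an adaptor that stabilises the receptor at the surface, read 9.90 and 9.89 on the DN2 arrays and 3.18 and 3.24 on the GMP arrays (6.69 ± 0.10). Themis, a regulator of signal strength during selection, read 7.98 and 7.43 on the DN2 arrays and 3.34 and 3.70 on the GMP arrays (4.18 ± 0.21). In these 3 adaptor genes both DN2 arrays lay more than 3 log2 units above both GMP arrays. Ptcra, the pre-T-cell receptor alpha chain, was not called: it read 3.31 and 3.52 on the DN2 arrays and 3.17 and 3.23 on the GMP arrays, near background in every array. The list count was 14 without DN2 array 1 and 15 without each of the other arrays.

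The Gimap GTPases, a family of lymphocyte survival proteins encoded side by side, were higher in 6 of 8 measured members and lower in 0, with a median of 2.80. Gimap1 read 9.77 and 9.94 on the DN2 arrays and 5.16 and 4.31 on the GMP arrays (5.12 ± 0.26), and Gimap6 read 8.46 and 8.52 on the DN2 arrays and 4.26 and 3.86 on the GMP arrays (4.43 ± 0.15). Gimap8, Gimap9, Gimap5 and Gimap7 differed by 3.49, 2.82, 2.78 and 2.51. Each of the 6 had both DN2 arrays above both GMP arrays. The groups did not overlap, in either direction, in 65.1% of all genes, so nothing is read from that. None of these calls was lost with 1 array left out.

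Notch pathway genes were higher in 9 of 16 measured members and lower in 0, with a median of 0.63. Among the receptors, Notch1 read 11.74 and 11.72 on the DN2 arrays and 8.52 and 8.49 on the GMP arrays (3.23 ± 0.10) and Notch3 6.26 and 6.56 on the DN2 arrays and 3.13 and 2.86 on the GMP arrays (3.42 ± 0.15), while Notch2 was not called. Of the targets, Hes1, a transcriptional repressor, read 10.20 and 9.17 on the DN2 arrays and 3.96 and 3.88 on the GMP arrays (5.77 ± 0.31). Nrarp, a feedback inhibitor of Notch, read 8.09 and 8.00 on the DN2 arrays and 4.24 and 4.42 on the GMP arrays (3.71 ± 0.12). Dtx1, a ubiquitin ligase of the pathway, differed by 2.55 ± 0.16. These 2 receptors and 3 targets had both DN2 arrays above both GMP arrays, where 65.1% of all genes had groups that did not overlap in either direction. Hes1 varied by about 1 log2 unit between the DN2 arrays. The targets Hes5 (0.25), Heyl (-0.02) and Ptcra (0.21) were not called. The 9 include Il2ra, itself a sort marker, and the count ranged from 7 to 8 when 1 array was left out.

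Factors of T-cell identity were higher in 11 of 16 measured genes and lower in 2, with a median of 0.84. Gata3, the factor that follows Notch in early T cells, read 8.15 and 8.01 on the DN2 arrays and 3.54 and 2.80 on the GMP arrays (4.91 ± 0.23). Ets1, Satb1 and Runx1, which act on many lymphoid enhancers, differed by 2.47 ± 0.14, 2.15 ± 0.13 and 2.11 ± 0.15, from GMP levels between 7.15 and 9.44. These 3 were therefore expressed in both cells and more so in DN2. The 2 lower genes were Ets2 and Lmo2, a progenitor cofactor that read 7.82 and 7.56 on the DN2 arrays and 11.66 and 11.80 on the GMP arrays (-4.04 ± 0.13). The count of higher factors was 6 without DN2 array 1 and 7 without DN2 array 2, and Bcl11b, Gata3, Ets1, Satb1 and Runx1 were called in both cases.

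E proteins, the helix-loop-helix factors that drive lymphoid genes, and the Id proteins that block them gave 5 higher and 2 lower of 8, with a median of 1.05. Tcf12, the E protein HEB, read 10.89 and 10.81 on the DN2 arrays and 9.64 and 9.40 on the GMP arrays (1.33 ± 0.12). The inhibitors went both ways: Id2 was higher (8.52 and 8.42 against 7.08 and 6.86, 1.50 ± 0.12) and Id1 lower (5.61 and 6.14 against 8.62 and 7.62, -2.24 ± 0.33). The call of Id1 was lost without DN2 array 1 (-1.98, adjusted p = 0.095) or DN2 array 2 (-2.51, adjusted p = 0.0574), and the list had 2 and 3 higher genes in those cases. Of the Ikaros family, chromatin-binding zinc finger proteins of lymphocytes, 4 of 5 were higher and 0 lower. Ikzf2 (Helios) read 10.61 and 10.40 on the DN2 arrays and 7.81 and 7.51 on the GMP arrays (2.85 ± 0.14), and Ikzf1 (Ikaros), bright in both cells, differed by 0.91 ± 0.12. The Ikzf1 call was lost without DN2 array 1 (0.86, adjusted p = 0.0621), where the family count was 2.

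Genes of antigen receptor rearrangement were higher in 7 of 9 and lower in 1, with a median of 1.90. Rag1, which with its partner Rag2 cuts the receptor loci, read 7.51 and 7.61 on the DN2 arrays and 3.88 and 3.33 on the GMP arrays (3.95 ± 0.19). Rag2 read 7.08 and 7.50 on the DN2 arrays and 3.76 and 3.84 on the GMP arrays (3.49 ± 0.16). Both recombinase genes were thus clearly above background in DN2 and near it in GMP. Lig4, the ligase that joins the cut ends, read 8.41 and 8.29 on the DN2 arrays and 5.00 and 5.48 on the GMP arrays (3.11 ± 0.17). The Ku subunits Xrcc5 and Xrcc6, which hold DNA ends, were present in both cells and differed by 1.90 ± 0.13 and 1.89 ± 0.11. The gene lower in DN2 was Nhej1, a joining cofactor (-0.73), whose call was lost without either DN2 array.

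**Figure D3:**
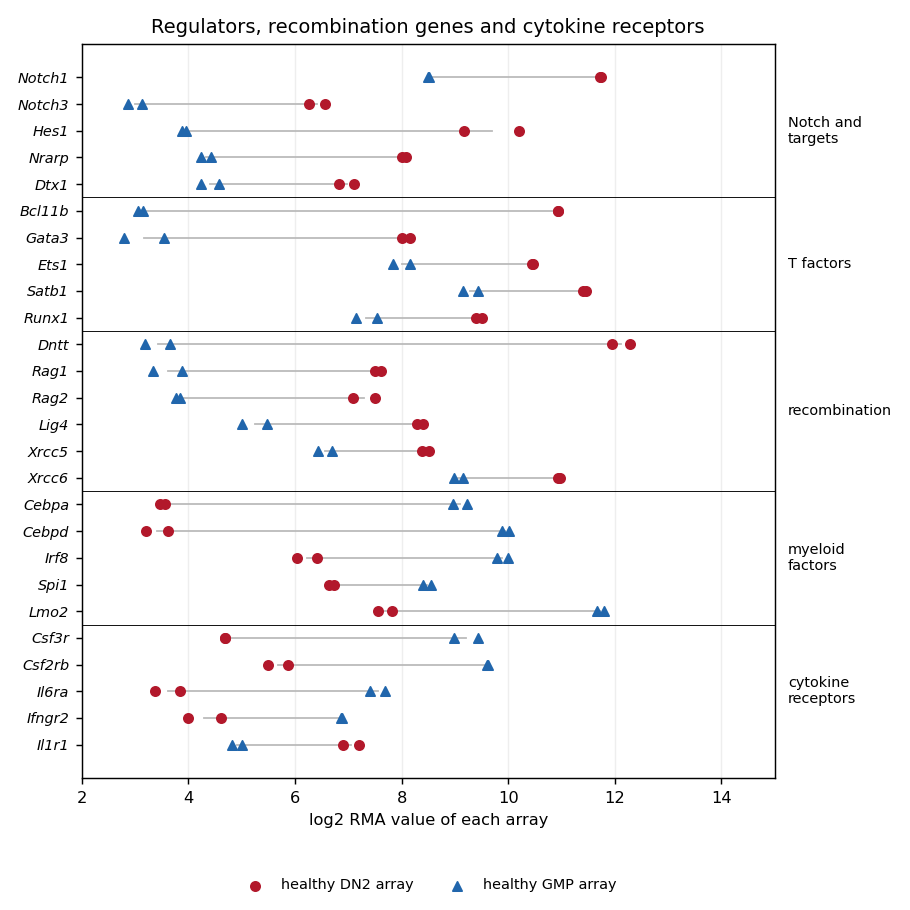
Log2 value of each healthy array for genes of the Notch pathway, T-cell factors, recombination, myeloid factors (with the progenitor cofactor Lmo2) and cytokine receptors (circles DN2, triangles GMP, grey line between the group means). The Notch, T-cell and recombination genes shown were higher on both DN2 arrays. The myeloid factors and all cytokine receptors shown but Il1r1 were lower. The genes shown are a selection. Lmo2 belongs to the T-cell factor list, which also holds the lower gene Ets2, and the recombination list holds the lower gene Nhej1. The myeloid factor list also holds Klf4, Egr1 and Nfe2, which were higher in DN2.

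Cytokine receptor genes differed between the cells, mainly those of myeloid cytokines. Of 13 measured receptors of myeloid cytokines 10 were lower in DN2 and 1 higher, with a median of -1.83. Csf3r, the G-CSF receptor, read 4.68 and 4.69 on the DN2 arrays and 8.98 and 9.44 on the GMP arrays (-4.53 ± 0.16). Csf2rb, the common beta chain for GM-CSF, IL-3 and IL-5, read 5.87 and 5.49 on the DN2 arrays and 9.63 and 9.60 on the GMP arrays (-3.94 ± 0.15). Il6ra, the IL-6 receptor chain, and Ifngr2, a chain of the interferon gamma receptor, differed by -3.94 ± 0.18 and -2.58 ± 0.20. The exception was Il1r1, the receptor of interleukin 1, which was higher in DN2, at 7.20 and 6.91 on the DN2 arrays and 5.01 and 4.81 on the GMP arrays (2.15 ± 0.14). Flt3 read 4.75 and 4.82 on the DN2 arrays and 7.45 and 5.93 on the GMP arrays, so the GMP arrays differed between themselves by more than 1 log2 unit. Its call (-1.91 ± 0.44) was lost without DN2 array 1 (-1.87, adjusted p = 0.214) or DN2 array 2 (-1.94, adjusted p = 0.19).

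Of 12 measured lymphoid cytokine receptor and JAK-STAT genes, 6 were higher and 1 was lower, with a median of 0.53. Among the higher genes, Jak1, Stat5a and Stat5b do not encode receptors. Besides Il2ra, Il17rb, the IL-25 receptor chain, read 10.11 and 10.16 on the DN2 arrays and 6.94 and 7.56 on the GMP arrays (2.89 ± 0.20). Jak1, a kinase of the JAK family, and Stat5b, a STAT factor, differed by 1.43 ± 0.11 and 1.26 ± 0.11. Il2rb, the beta chain needed with Il2ra for high-affinity IL-2 signalling, was near background in both cells (3.66 and 3.71 against 3.85 and 3.97) and not called. Il18r1 was higher by 1.28 ± 0.34, but its call was lost without any 1 of the 4 arrays, with differences from 0.82 to 1.74. Il4ra, Il21r and Crlf2 were not called. Il15ra was the gene lower in DN2 (-1.08 ± 0.12).

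On the myeloid side, the primary granule list was lower in DN2 in 9 of 10 measured members and higher in 0, with a median of -4.97. It also holds Ms4a3, Clec5a and Serpinb1a, so the count and median are not those of granule proteins alone. Elane, the first protease gene shown above, read 4.01 and 4.59 on the DN2 arrays and 12.32 and 12.39 on the GMP arrays (-8.05 ± 0.20). Ctsg, cathepsin G, read 7.52 and 7.49 on the DN2 arrays and 13.49 and 13.66 on the GMP arrays (-6.08 ± 0.11), and Mpo, myeloperoxidase, read 10.60 and 10.57 on the DN2 arrays and 13.88 and 13.95 on the GMP arrays (-3.33 ± 0.10). Ms4a3, Prtn3 and Elane lay near background on the DN2 arrays, whereas Ctsg and Mpo did not. In these bulk samples a small share of myeloid cells and a low level in many DN2 cells cannot be told apart. Fcnb, a secreted ficolin, and Clec5a, an activating lectin receptor, differed by -4.60 ± 0.11 and -5.34 ± 0.14. Ctsc, which activates the granule proteases, was bright in both and not called (9.96 and 9.98 against 10.17 and 10.22). The list count was 7 without DN2 array 1 and 8 without DN2 array 2, and Mpo, Elane, Prtn3, Ctsg and Ms4a3 were called in both cases.

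Genes of later neutrophils were lower in 10 of 16 and higher in 1, with a median of -1.70. Chil3, a chitinase-like secretory protein, read 3.11 and 3.08 on the DN2 arrays and 8.64 and 8.64 on the GMP arrays (-5.54 ± 0.10). Camp, the cathelicidin of secondary granules, differed by -4.96 ± 0.27. Lcn2, the iron-binding lipocalin, differed by -4.02 ± 0.11 and Ngp, a neutrophil granule protein, by -3.70 ± 0.39. The GMP arrays therefore already carried some secondary granule transcripts, but Ltf, lactoferrin, stayed near background in all 4 arrays (4.02 and 3.87 against 4.34 and 3.92) and was not called. The higher gene was Padi4, a histone deiminase (1.79).

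Myeloid transcription factors gave 6 lower and 3 higher of 13, with a median of -0.38. Cebpa, the C/EBP factor required to form GMP, read 3.56 and 3.46 on the DN2 arrays and 8.96 and 9.23 on the GMP arrays (-5.59 ± 0.13), and Cebpd, its relative, read 3.61 and 3.21 on the DN2 arrays and 10.01 and 9.88 on the GMP arrays (-6.53 ± 0.15). Both were near background in DN2. Irf8, which directs monocyte and dendritic cell fate, read 6.41 and 6.03 on the DN2 arrays and 10.00 and 9.79 on the GMP arrays (-3.67 ± 0.16), and Spi1, which encodes PU.1, read 6.74 and 6.64 on the DN2 arrays and 8.55 and 8.41 on the GMP arrays (-1.79 ± 0.11). Irf8 and Spi1 were thus still well above background in DN2. Gfi1, a repressor used by both neutrophils and T cells, read 8.76 and 8.95 against 10.00 and 10.09 (-1.20 ± 0.12). Klf4, Egr1 and Nfe2 were higher in DN2 (1.35, 2.28 and 0.43), and none of the 3 was called without DN2 array 1 or without DN2 array 2. For Klf4 the values were 1.32 and 1.39 (adjusted p = 0.0702 and 0.0596), and for Egr1 2.00 and 2.56 (adjusted p = 0.11 and 0.0654). Myb, a factor of many progenitors, did not differ by more than its error (-0.02).

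Monocyte genes were lower in 13 of 16 and higher in 0, with a median of -2.32. F13a1, coagulation factor XIII, read 5.17 and 4.74 on the DN2 arrays and 11.45 and 11.26 on the GMP arrays (-6.40 ± 0.17). Ly6c1, a surface antigen of inflammatory monocytes, read 6.82 and 6.98 on the DN2 arrays and 12.93 and 12.89 on the GMP arrays (-6.01 ± 0.11), and Mpeg1, a pore-forming protein of macrophages, read 4.16 and 4.04 on the DN2 arrays and 10.19 and 9.98 on the GMP arrays (-5.98 ± 0.12). All 3 were clear of background on both GMP arrays. Ccr2 and Cd14 differed by -3.73 ± 0.22 and -4.52 ± 0.15. With the leukemia arrays in the fit 3 monocyte genes were called lower, and F13a1 (adjusted p = 0.074) and Ccr2 (adjusted p = 0.148) were not among them. All 4 measured oxidase genes were lower in DN2, with a median of -1.75. The smallest difference, in Rac2 (-0.41 ± 0.12), lost its call without DN2 array 1 (-0.47), DN2 array 2 (-0.35) or GMP array 2 (-0.32). Cybb, the catalytic subunit of the phagocyte oxidase, read 2.89 and 3.14 on the DN2 arrays and 9.13 and 8.92 on the GMP arrays (-6.01 ± 0.14), and its membrane partner Cyba, high in both cells, differed by -1.30 ± 0.11.

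The Toll-like receptor list gave 4 lower and 2 higher of 13. Tlr4, the endotoxin receptor, read 3.62 and 3.68 against 6.01 and 5.98 (-2.35 ± 0.10) and Tlr2, which senses lipoproteins, read 5.27 and 4.77 against 7.43 and 6.85 (-2.12 ± 0.24). Tlr7 and Tlr6 were the higher genes (0.86 and 0.62), and neither was called without DN2 array 1 (0.72 and 0.71, adjusted p = 0.21 and 0.116) or without DN2 array 2 (1.00 and 0.53, adjusted p = 0.111 and 0.181). Tlr7 was also lost without GMP array 1 (0.60, adjusted p = 0.067) and Tlr6 without GMP array 2 (0.48, adjusted p = 0.0788).

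**Figure D4:**
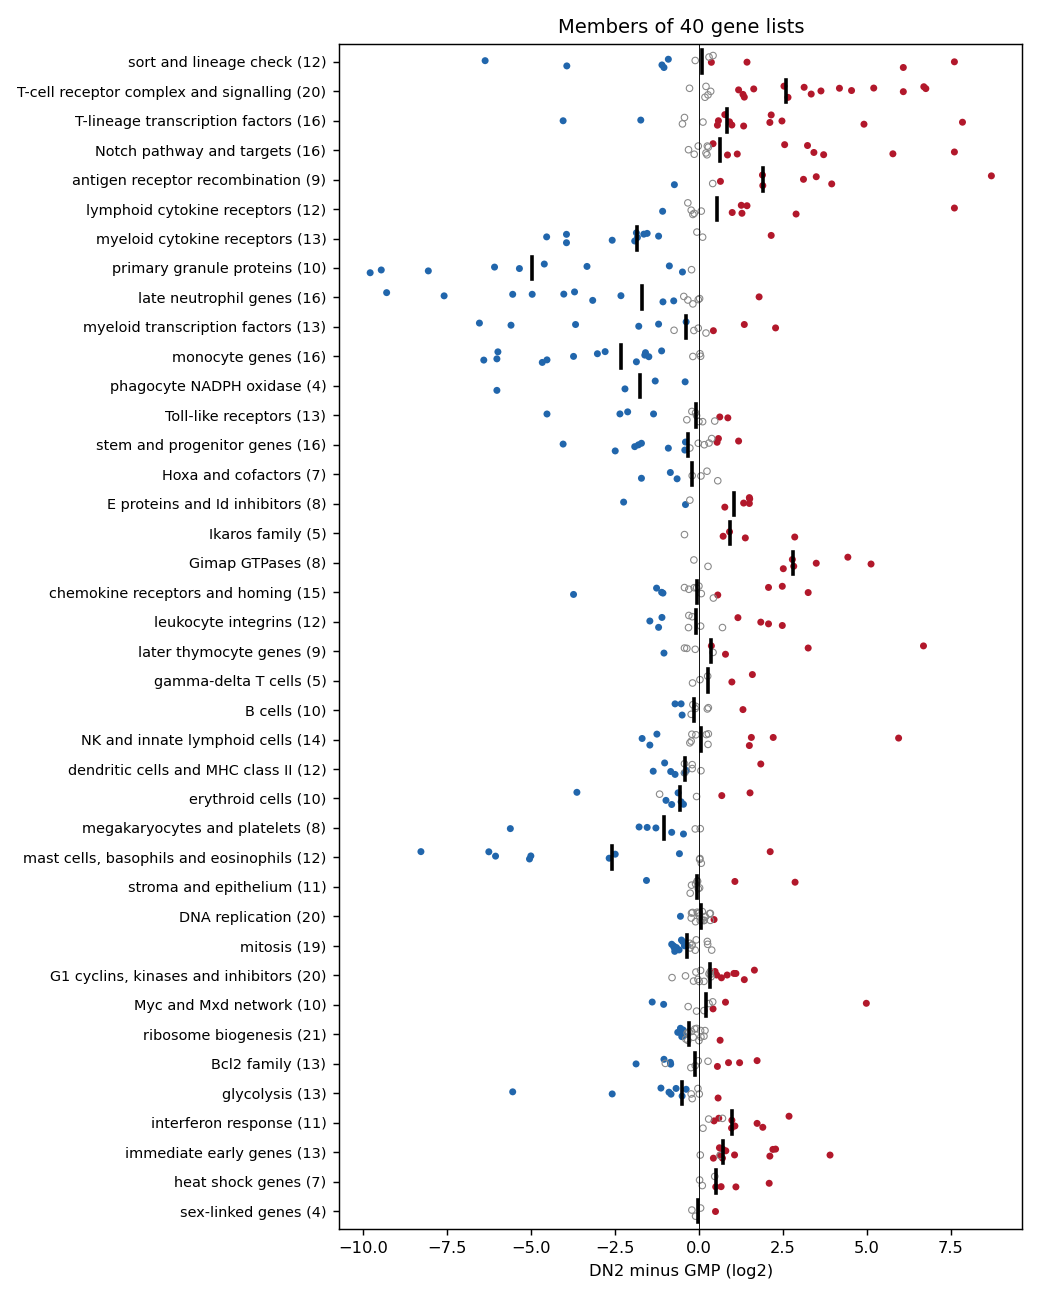
DN2 minus GMP difference (log2, horizontal axis) of each measured member of 40 gene lists, with the number of measured members in brackets. Filled points are called genes (red higher, blue lower in DN2), open points were not called, and the black bar is the median of a list. The T-cell receptor and Gimap lists lie right of 0 (medians 2.59 and 2.80), and the granule and monocyte lists left of 0 (medians -4.97 and -2.32).

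Homing and adhesion genes were called in both directions, and nothing is read from their counts. Among 15 measured chemokine receptor and homing genes 4 were higher and 4 lower. Ccr9, the receptor that guides thymocytes and gut-homing T cells, read 6.75 and 6.18 on the DN2 arrays and 3.03 and 3.40 on the GMP arrays (3.25 ± 0.22). The chains of the gut-homing integrin, Itga4 and Itgb7, differed by 2.07 ± 0.11 and 2.48 ± 0.12. Ccr2, Ccr1 and Cx3cr1, receptors of the monocyte lineage, were lower in DN2 (-3.73, -1.26 and -1.11). Of 12 leukocyte integrins 4 were higher and 3 lower. Among all genes with a mean above 5, 24% were called higher and 25.7% lower. Itgal, the LFA-1 alpha chain, was higher (10.25 and 10.29 against 9.12 and 9.09, 1.16 ± 0.10), while its beta chain Itgb2 was lower (6.54 and 6.84 against 8.06 and 8.23, -1.46 ± 0.14).

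Stem and progenitor genes gave 8 lower and 3 higher of 16. Gata2, a factor of stem, mast and megakaryocyte cells, read 4.25 and 3.61 on the DN2 arrays and 6.90 and 5.95 on the GMP arrays (-2.49 ± 0.34), and Meis1, a Hoxa cofactor, read 4.59 and 5.17 on the DN2 arrays and 7.05 and 6.14 on the GMP arrays (-1.71 ± 0.32). In both genes GMP array 1 was the brighter by more than 0.9 log2 units. Gata2 lost its call without DN2 array 2 (-2.17, adjusted p = 0.0686), and Meis1 lost it without DN2 array 1 (-1.42, adjusted p = 0.15) or DN2 array 2 (adjusted p = 0.0755). Erg, an Ets factor of stem cells that early T progenitors share, was higher in DN2 (9.43 and 9.40 against 8.35 and 8.10, 1.18 ± 0.13). The lower count was 3 without DN2 array 1 and 2 without DN2 array 2, and the higher count was 1 in both cases. Of 7 Hoxa genes and cofactors 3 were lower and 0 higher, and Hoxa9, a stem cell homeobox factor, read 4.30 and 4.50 against 5.15 and 4.95 (-0.65 ± 0.13). The other lower genes were the cofactors Meis1 and Pbx3, while Hoxa5, Hoxa7 and Hoxa10 were not called. Hoxa9 lost its call without DN2 array 1 (-0.55), DN2 array 2 (-0.75) or GMP array 1 (-0.55).

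No called gene of DNA replication or mitosis differed by 2-fold. Of 20 measured DNA replication genes, 1 was higher (Mcm6, 0.45), 1 was lower (Cdc45, -0.55), and the median was 0.07. Neither of these calls held without DN2 array 1 (adjusted p = 0.166 and 0.217) or DN2 array 2 (adjusted p = 0.148 and 0.128). Mitosis genes were lower in 10 of 19 and higher in 0, with a median of -0.35, and Aurkb, a mitotic kinase, read 8.71 and 8.78 against 9.52 and 9.58 (-0.81 ± 0.11). The mitosis count was 0 without DN2 array 1, 1 without DN2 array 2 and 6 without GMP array 2. Of 20 genes of the G1 phase 8 were higher and 0 lower, led by E2f2, an S-phase factor (7.99 and 7.68 against 6.23 and 6.13, 1.65 ± 0.14), and the count was 2 and 3 in those same cases. Ccnd3, the D cyclin that thymocytes use, differed by 1.04 ± 0.12. Among all genes with a mean above 5, 24% were called higher and 25.7% lower.

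In the Myc and Mxd network 3 of 10 were higher and 2 lower. Mycn read 8.03 and 8.60 on the DN2 arrays and 3.58 and 3.09 on the GMP arrays (4.98 ± 0.24), whereas Myc was bright in both cells and not called (10.10 and 10.28 against 10.65 and 10.37, adjusted p = 0.141). The larger difference between the cells was therefore in Mycn. It was 0.09 and not called with the Mycn probe set that was brightest over all 17 arrays, and without DN2 array 1 or DN2 array 2 the network had 1 higher and 1 lower gene. The lost lower gene was Mxi1 (-1.14, adjusted p = 0.057, and -0.97, adjusted p = 0.0738). Among all genes with a mean above 5, 24% were called higher and 25.7% lower, the shares to set beside the ribosome biogenesis and Bcl2 family lists. Ribosome biogenesis genes were lower in 7 of 21 and higher in 1, with no member at least 2-fold different. The lower count was 0 without DN2 array 1 or DN2 array 2 and 2 without GMP array 2. In the Bcl2 family 4 were higher (2 without DN2 array 1) and 4 lower of 13. Bcl2l11 (Bim), a death activator of thymocytes, was higher (8.69 and 8.18 against 6.86 and 6.55, 1.73 ± 0.19), and Bcl2a1a, a survival protein of granulocytes, was lower (3.38 and 3.45 against 5.37 and 5.19, -1.87 ± 0.12).

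Glycolytic genes were lower in 8 of 13 and higher in 1, with a median of -0.50. The large differences were in isoforms: Hk3, the hexokinase of myeloid cells, read 4.33 and 3.71 on the DN2 arrays and 9.47 and 9.65 on the GMP arrays (-5.54 ± 0.21), and Pfkp, the platelet-type phosphofructokinase, read 7.24 and 7.39 on the DN2 arrays and 9.84 and 9.95 on the GMP arrays (-2.58 ± 0.12). Hk2 and Pkm differed by -1.13 ± 0.10 and -0.89 ± 0.11. The lower count was 4 without DN2 array 1 or DN2 array 2, and Hk3, Pfkp, Hk2 and Pkm were called in both cases.

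Signalling and stress genes also separated the arrays. Immediate early genes, which respond within minutes to stimulation or cell handling, were higher in DN2 in 11 of 13 and lower in 0, with a median of 0.71. Nr4a1 read 11.14 and 10.57 on the DN2 arrays and 7.78 and 6.15 on the GMP arrays (3.90 ± 0.49), and Junb read 8.69 and 8.27 on the DN2 arrays and 6.58 and 5.98 on the GMP arrays (2.20 ± 0.23). In both genes GMP array 2 was the lowest. Without DN2 array 1 the Nr4a1 call was lost (3.61, adjusted p = 0.0736), as it was without DN2 array 2 (4.18, adjusted p = 0.0528), and the list count was 2 and 5. Heat shock genes were higher in 4 of 7 and lower in 0, with Dnajb1, a chaperone partner, at 11.41 and 11.34 against 10.31 and 10.24 (1.10 ± 0.11) and a count of 1 without DN2 array 1 and 2 without DN2 array 2. The mean over the 13 immediate early genes was 11.07 and 10.76 on the DN2 arrays and 9.90 and 9.45 on the GMP arrays. Tissue of origin, cell isolation and lineage coincide with the groups and cannot be told apart.

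Interferon-response genes were higher in 8 of 11 and lower in 0, with a median of 0.97. Usp18, a feedback inhibitor of the interferon receptor, read 7.18 and 7.27 on the DN2 arrays and 4.83 and 4.26 on the GMP arrays (2.68 ± 0.19). Ifit1, an antiviral RNA-binding protein, read 5.93 and 5.83 on the DN2 arrays and 4.05 and 3.92 on the GMP arrays (1.90 ± 0.11). Most members were dim in both cells, with list means of 5.92 and 5.89 in DN2 and 4.84 and 4.88 in GMP. The count was 6 without DN2 array 1 and 5 without DN2 array 2, and 0 of the 8 were called when the leukemia arrays joined the fit. That fit of 17 arrays lowered other counts as well. The higher counts fell to 0 for G1, heat shock, Bcl2 family and myeloid factor genes, to 3 for immediate early genes, to 5 for T-cell factors, to 2 for E and Id proteins, Ikaros factors and chemokine receptors, and to 1 for integrins. The lower counts fell to 0 for mitosis, ribosome biogenesis, chemokine receptor, integrin, dendritic cell and erythroid genes. They were 5 for glycolysis and stem cell genes, 6 for myeloid cytokine receptors, 2 for myeloid factors, 1 for Toll-like receptors and 3 for megakaryocyte genes. Counts within 1.5 times those given above included 14 T-cell receptor genes, 5 Gimap genes, 6 Notch genes, 6 recombination genes, 6 primary granule genes and 7 late neutrophil genes. Of the sex-linked genes, Xist was bright on all 4 arrays (12.48 and 12.35 against 11.98 and 11.88), and the 3 measured Y-linked genes lay between 2.69 and 3.58. Its difference of 0.48 ± 0.11 lost its call without DN2 array 1 (0.42) or DN2 array 2 (0.55).

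Markers of other cells were examined on both sides of the comparison. B-cell genes gave 1 higher and 3 lower of 10 (0 and 0 without DN2 array 1 or DN2 array 2), 8 members were under 5 on all 4 arrays, and Pax5, Ebf1 and Cd79a were near background throughout. Cd79b, a B-cell receptor chain, read 7.62 and 7.53 against 8.10 and 8.11 (-0.53), and Vpreb1, a surrogate light chain, 5.93 and 5.86 against 4.15 and 5.02 (1.31). Gamma-delta T-cell genes gave 2 higher of 5, Sox13 (5.30 and 5.25 against 4.51 and 4.08) and Blk (5.42 and 3.96 against 3.07 and 3.14), with Maf and Il17a near background. Sox13 lost its call without DN2 array 1 (0.95, adjusted p = 0.103) or DN2 array 2 (1.01, adjusted p = 0.0877), and Blk without GMP array 1 (1.55, adjusted p = 0.172) or GMP array 2 (1.62, adjusted p = 0.194). Among 14 NK and innate lymphoid genes 4 were higher and 3 lower. Gzma, a cytotoxic granule protease, read 9.09 and 9.15 on the DN2 arrays and 3.27 and 3.08 on the GMP arrays (5.94 ± 0.12), while the NK-cell genes Ncr1, Eomes, Tbx21 and Il2rb were near background in both groups. Other members were bright: Gzmb, another granzyme, read 8.60 and 7.86 against 6.35 and 5.68 (2.21), and Nkg7, a cytotoxic granule protein, read 10.70 and 10.78 against 12.30 and 12.57 (-1.69). The other higher genes were Id2 (1.50) and Klrd1 (1.56). Gzmb lost its call without DN2 array 1 (1.85, adjusted p = 0.0551), and Klrd1 without GMP array 1 (adjusted p = 0.0637) or GMP array 2 (adjusted p = 0.0774). The part of such cells in the results was not tested. Stroma and epithelium genes gave 2 higher (Epcam and the endothelial adhesion gene Pecam1, 1.07) and 1 lower (the keratin Krt8, -1.56) of 11. Pecam1 lost its call without DN2 array 1 (0.94, adjusted p = 0.101) or DN2 array 2 (1.19, adjusted p = 0.0614), which left 1 higher gene. The epithelial genes Foxn1 and Krt5, were near background on all 4 arrays, whereas Epcam read 6.26 and 6.58 against 3.62 and 3.49 (2.86 ± 0.14) with 1 of its 2 probe sets in that direction.

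Many markers of other myeloid branches were higher on the GMP arrays, but not all. The mast cell protease genes Cma1 (0.07), Tpsb2 (0.02) and Tpsab1 (0.03) were not called. Mast cell, basophil and eosinophil genes were lower in DN2 in 8 of 12 and higher in 1, with a median of -2.58. Epx, eosinophil peroxidase, read 3.41 and 3.29 on the DN2 arrays and 9.35 and 9.86 on the GMP arrays (-6.25 ± 0.18). Mcpt8, a basophil protease, read 5.80 and 5.63 on the DN2 arrays and 10.56 and 10.88 on the GMP arrays (-5.00 ± 0.15), and Hdc, which makes histamine, read 4.87 and 4.97 on the DN2 arrays and 10.88 and 11.07 on the GMP arrays (-6.05 ± 0.12). The GMP arrays thus held transcripts of several granulocyte branches. The 1 higher gene, Cpa3, a mast cell carboxypeptidase, was bright in both cells (12.22 and 12.17 against 10.04 and 10.11, 2.12 ± 0.11).

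Megakaryocyte genes were lower in DN2 in 6 of 8. Pf4, platelet factor 4, read 3.07 and 2.99 on the DN2 arrays and 9.08 and 8.20 on the GMP arrays (-5.61 ± 0.27), while Gp1bb, a platelet receptor chain, read 3.08 and 3.11 on the DN2 arrays and 5.58 and 4.19 on the GMP arrays and Vwf, its ligand, 2.97 and 3.04 on the DN2 arrays and 5.15 and 3.94 on the GMP arrays. In Gp1bb and Vwf GMP array 1 was the brighter by more than 1.2 log2 units. Neither gene was called without DN2 array 1 (-1.77 and -1.51, adjusted p = 0.203 and 0.212) or DN2 array 2 (-1.80 and -1.58, adjusted p = 0.187 and 0.186), and the list count was 1 in both cases. The list mean was 3.88 and 3.82 on the DN2 arrays and 5.57 and 5.02 on the GMP arrays, and its part in the stem cell gene differences was not tested. Erythroid genes gave 6 lower and 2 higher of 10, with the globins opposed: Hba-a1 read 7.07 and 7.26 on the DN2 arrays and 11.03 and 10.55 on the GMP arrays and Hbb-b2 11.65 and 11.38 on the DN2 arrays and 10.26 and 9.72 on the GMP arrays. Globin genes have near-identical copies, so these 2 values are uncertain, and the Hbb-b2 call was lost without DN2 array 1 (1.39, adjusted p = 0.069). The higher erythroid count was 0 without DN2 array 1 and 1 without DN2 array 2, and the lower one was 1 without DN2 array 1 and 2 without DN2 array 2 or GMP array 1. Dendritic cell and MHC class II genes gave 6 lower and 1 higher of 12, and the lower count was 1 without DN2 array 1 or DN2 array 2 and 3 without GMP array 1.

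Genes at least 2-fold different had a neighbour of the same direction more often than genes in general. Neighbours were taken among the measured genes only, so unmeasured genes can lie between them. The RefSeq gene order of GRCm38.p6 was used for neighbours only. Of 1008 placed genes at least 2-fold higher in DN2, 176 (17.5%) had a neighbour that was too, against 11.2% of all 17053 placed genes. Of 932 genes at least 2-fold lower, 208 (22.3%) had such a neighbour, against 10.5%. There were 15 runs of 3 or more higher genes and 14 runs of lower genes. The higher runs, named after their values were seen, included Gimap6, Gimap7, Gimap1 and Gimap5, the costimulatory receptors Cd28, Ctla4 and Icos, and the fatty acid desaturases Fads3, Fads2 and Fads1. Fads2 read 8.88 and 8.82 on the DN2 arrays and 4.08 and 4.16 on the GMP arrays (4.73 ± 0.11). The lower runs included Prtn3 and Elane with Plppr3, the Fc receptors Fcgr2b, Fcgr4 and Fcgr3, Ms4a6d, Ms4a2 and Ms4a3, and the chemokines Ccl9, Ccl6 and Ccl3. Ccl9 read 6.79 and 6.81 on the DN2 arrays and 11.50 and 11.51 on the GMP arrays (-4.70 ± 0.10). Some runs hold related genes, whose probe sets can share signal, and others do not, such as Plod2, Dipk2a and Slc9a9 among the higher runs and Neto2, Itfg1 and Phkb among the lower ones.

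The healthy difference was then followed on the leukemia arrays, which share no sample with it. The series design text describes these cells as sorted for CD11b and Gr1 and negative for CD3, CD4 and CD8. On the 5 DN2-labelled leukemia arrays, however, Cd3g ranged from 11.06 to 11.96 with a median of 11.32, against 3.30 to 3.79 on the GMP-labelled ones. This is a transcript, which healthy DN2 cells also carried, and it does not show whether CD3 was on the surface. Itgam, the CD11b chain, read 7.17 on DN2-labelled leukemia array 1 and 7.38 on array 3 but 3.24 to 3.47 on the others, against 8.06 to 9.95 on the GMP-labelled arrays. Of the 2476 genes higher in healthy DN2, 74.8% were also higher in DN2-labelled than in GMP-labelled leukemia, and 41.7% were called so, against 52.6% and 14.1% of all genes. Of the 2694 genes lower in healthy DN2, 72.2% were also lower and 39% were called, against 47.4% and 12.6% of all genes. The opposite direction was called for 6.87% and 6.9%. Without the DN2-labelled leukemia arrays 1 and 3, which stand apart in Itgam, the shares in the same direction were 73.9% and 72.3%.

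For the 24 leading genes the 2 contrasts gave the same sign in 22, and 15 were called in the same direction in leukemia. Some matching signs came from small differences that were not called, such as 0.07 for 1810073O08Rik and 0.10 for Arpp21. Of the 12 largest rises, 5 were called in the same direction in leukemia and 0 in the opposite one. The interaction was called for 8 (7.98% of all genes), but it contains the healthy difference that chose these genes, so nothing is read from that count. Cd3g differed by 7.96 ± 0.26 and Trat1 by 5.53 ± 0.26 in leukemia, and Bcl11b, which ranged from 8.30 to 9.67 and from 2.80 to 7.35 in the 2 labels, by 4.72 ± 0.69. Dntt, in contrast, ranged from 2.90 to 3.36 on DN2-labelled and from 3.15 to 3.49 on GMP-labelled leukemia arrays, and Il2ra from 3.02 to 3.28 and from 2.85 to 3.17. These groups overlapped near background, and the leukemia difference minus the healthy one was -8.85 ± 0.21 for Dntt and -7.45 ± 0.15 for Il2ra.

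Of the 12 largest falls, all 12 had the same sign in leukemia, 10 were called in the same direction and the interaction was called for 1. Ms4a3 ranged from 2.84 to 3.38 on DN2-labelled and from 9.88 to 12.50 on GMP-labelled leukemia arrays, a difference of -8.10 ± 0.62. Prtn3 differed by -7.70 ± 0.63, S100a8 by -8.50 ± 0.72 and Wfdc21 by -8.66 ± 0.43. Prg2 was lower on the GMP-labelled leukemia arrays than on healthy GMP, from 3.45 to 6.81, and its leukemia difference of -0.96 ± 1.20 was not called. Dmkn, the gene with a called interaction, differed by -1.88 ± 0.50 in leukemia and by -7.01 in healthy cells.

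**Figure D5:**
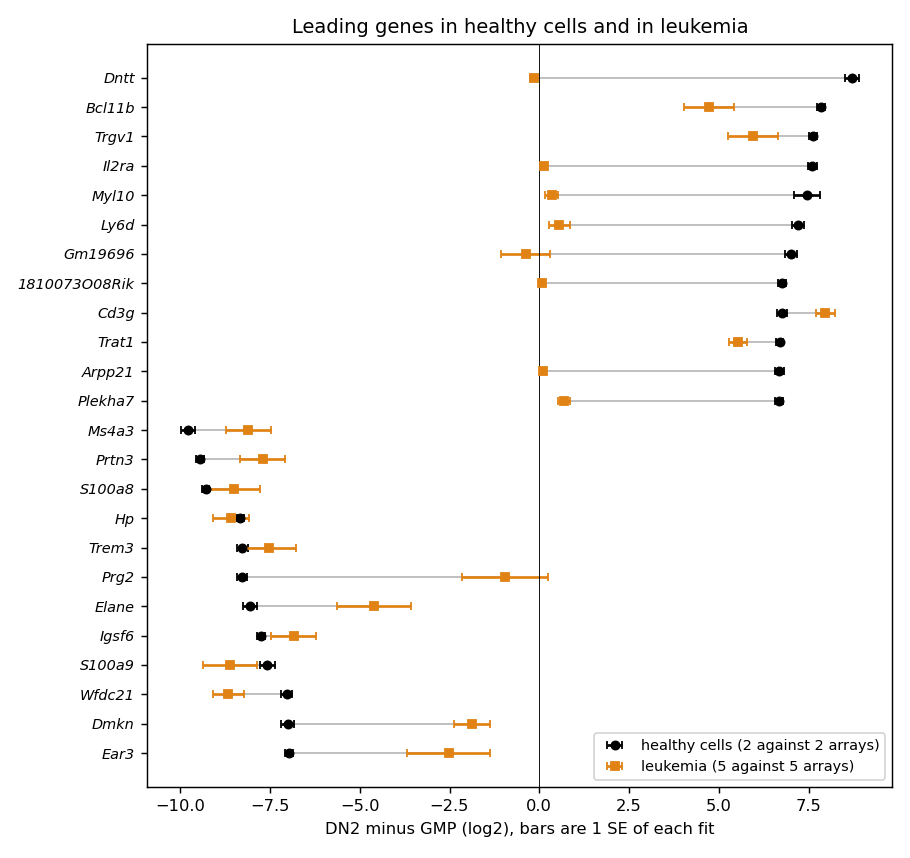
DN2 minus GMP difference (log2, horizontal axis) of the 24 leading genes in healthy cells (black circles, SE of the fit of 4 arrays) and DN2-labelled minus GMP-labelled leukemia (orange squares, SE of the fit of 17 arrays). Cd3g, Trat1, Bcl11b and Trgv1 stay right of 0 in leukemia, 8 of the other rises lie near 0, and most of the falls stay far left of it.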

How the data were processed

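Total RNA (300 ng) was labelled by 3′ IVT Express and hybridised to Affymetrix mouse arrays, per the labels' protocols. The deposited values are log2 summaries per probe set made by the authors with RMA and affy, per the submitters' processing notes. No tool version was given in these sources. No detection calls came with the table.

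Of 45141 probe sets, 104 controls were left out, 28898 had 1 gene symbol, 551 had several and 15588 were not listed. The last 2 kinds were not named, so listed genes without a named probe set were not analysed here. Of the probe sets with 1 symbol, 28689 matched RefSeq (GRCm38.p6) by Entrez identifier. Each of 17097 genes was represented by its brightest probe set, by mean over the 4 healthy arrays, and 7180 had more than 1. The 4 healthy arrays alone were fitted in limma 3.58.1 with lmFit, then eBayes, under R 4.3.3, two-sided, with no filter on low values and Benjamini-Hochberg adjustment. The procedure was tested on simulated data. The leukemia contrast and the interaction (leukemia difference minus healthy difference) came from 1 limma fit of all 17 arrays.

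Arrays were grouped by their labels. The comparison, the 40 gene lists and the way genes were picked for naming were chosen with earlier results of these data known. Named were the sort markers, the 12 largest rises and falls with groups apart, up to 6 members per list, the CD3 chains and granule proteases. Mpo and other genes outside this rule (among them Ptcra, Il2rb, Ctsc, Gfi1, Myc, Ets2, Nhej1, Padi4, Nfe2, Myb, Ltf, Cpa3, Fads2 and Ccl9) were named after their values were seen. The replicate numbers do not pair the arrays: deviations of arrays with the same number correlated at 0.0339. Alternatives changed the arrays in the fit, the filter, the probe set, the normalization, the variance model, the block and each replicate.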

Additional observations from a re-analysis of the deposited data

Results flagged for a closer look

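Between healthy cells and leukemia the DN2 minus GMP difference changed in 9 of the 24 leading genes (interaction in the limma fit of 17 arrays, adjusted p under 0.05). These genes were chosen for their healthy difference, which is part of the interaction, so the values are a description. The leukemia difference was smaller than the healthy one by the following log2 amounts: Dntt -8.85, Il2ra -7.45, Gm19696 -7.38, Myl10 -7.12, 1810073O08Rik -6.69, Ly6d -6.64, Arpp21 -6.58 and Plekha7 -5.98. For Dmkn, a gene lower in healthy DN2, the change was 5.13. The Plekha7 value holds for 1 of its 2 probe sets.

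Among the 5 DN2-labelled leukemia arrays, array 1 stood apart from the other 4 in Trem3 (6.86 against a median of 3.22), in Igsf6 (7.52 against 3.55) and in Ear3 (9.62 against 3.56). Chance flags about 1 in 20 groups, and 48 groups were checked.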

How the results depend on the processing

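Leaving out each array in turn, the count of called genes ran from 1950 to 5176 (5170 with all 4), of higher genes from 953 to 2318 and of lower genes from 997 to 2858. With all 17 arrays in the fit the counts were 1333, 682 and 651, and 1027 genes were called and at least 2-fold different. Requiring 2-fold left 1945 of the called genes. Quantile normalization gave 2657 higher and 2479 lower genes, and centring each array on its median 2315 and 3137. With the replicate number as a block the count was 5172, and the numbers do not pair the arrays. Under the other alternatives the count of called genes stayed within 1.5 times the 5170, as did the count of 2-fold genes when arrays were left out. Of 240 named genes 213 were called, 89 of them under all 14 settings, and 45 were lost only in the fit of 17 arrays. The sign of a called gene turned for Plekha7 (-0.01 with the probe set brightest over all 17 arrays) and Nip7 (0.00 with the mean of its probe sets). Restricted to genes at least 2-fold different, the share with the same direction in leukemia was 78.6% of higher and 84.4% of lower genes (74.8% and 72.2% of all called genes). The cause of these changes was not tested.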

Other observations

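Families that share a name stem were counted after the values were seen, over 107 stems with at least 15 genes each, with no test. The stem counts were not repeated with arrays left out or with the leukemia arrays in the fit. In that fit the lower counts of the mitosis and ribosome biogenesis lists fell from 10 and 7 to 0. Those lists had medians of -0.35 and -0.30, so stem counts with medians of similar size are a description only. Genes named Zfp, which encode zinc finger proteins, were higher in DN2 in 132 of 301 and lower in 14 (43.9% and 4.65%, against 14.5% and 15.8% of all genes), with a median difference of 0.35. Zfp760 read 7.34 and 7.66 on the DN2 arrays and 5.35 and 5.31 on the GMP arrays. Genes of F-box proteins (Fbxo) were higher in 14 of 31 and lower in 2, and those of RNA-binding motif proteins (Rbm) were higher in 12 of 35 and lower in 0.

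Other stems, likewise chosen for their values and counted in the main fit only, had more lower genes. Of all genes, 15.8% were called lower and 14.5% higher. Large and small subunits of the mitochondrial ribosome (Mrpl and Mrps) were lower in DN2 in 26 of 46 and in 14 of 27, and higher in 0, with medians of -0.45 and -0.43. Genes of respiratory complex I and its assembly (Nduf) were lower in 26 of 42 and higher in 0, with a median of -0.48. Ndufa4, a complex IV associated subunit despite its name, differed by -0.68 ± 0.11, and Mrps18a read 8.79 and 8.90 on the DN2 arrays and 9.47 and 9.70 on the GMP arrays. For the cytosolic ribosome, the 45 Rpl genes had a median difference of -0.04, and of 32 Rps genes 2 were higher and 3 lower.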
